A study of Mus musculus with 16 samples.

Results

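The genes described here are Myc and 37 genes of ribosome biogenesis, 38 in all, taken by symbol from the 30141 gene rows of 16 RNA-seq libraries. The libraries were made from LSK cells of mouse bone marrow, which lack lineage markers, carry Sca1 and Kit on their surface, and include the blood stem cells with their earliest progeny. All 38 passed the filter on low counts and were tested among 18341 genes. None of the 38 differed between groups after adjustment over all genes, and 33 of them were at their highest in the same single library of the 16.

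The study compared 2 genotypes under 2 treatments. R882H libraries hold mouse WT DNMT3A with a human DNMT3A R882H allele, knocked in behind a Lox-Stop-Lox cassette and opened by Mx1-Cre; WT libraries hold mouse WT DNMT3A +/+. Donors of both genotypes had poly(I:C), which switches on Mx1-Cre, in doses of 15 µg per g on 3 days, and a schedule of 3 times 400 µg is also named with no list of the animals it was for. Their marrow was collected after 4 weeks and transplanted in equal parts with CD45.1 competitor marrow. From 2 weeks after transplant, recipients had azacitidine, a cytidine analogue that depletes DNA methyltransferases, at 2.5 mg per kg, or 0.9% NaCl as control, for 2 weeks (5 days on, 2 off, 5 on). The groups are WT with NaCl (n = 4), WT with azacitidine (n = 3), R882H with NaCl (n = 4) and R882H with azacitidine (n = 5). Neither an age, a separation of donor from competitor LSK cells, nor a link of each library to 1 animal is stated, so host or competitor cells of normal genotype may be among those sequenced. P-values therefore measure the spread between these libraries, which may be technical in part.

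MYC is a transcription factor that pairs with MAX and binds the E-box CACGTG near the start of many growth genes, among them those that build ribosomes. In the nucleolus, RNA polymerase I transcribes the ribosomal RNA precursor, small nucleolar RNA-protein particles (snoRNPs) modify it, and processing factors cut and fold it into the small and the large subunit. Haematopoietic stem cells are known for low protein synthesis, and committed progenitors for more of it, so these genes are often read as a sign of growth and commitment in this tissue.

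The E-box was searched in RefSeq promoter windows (GRCm38.p6, 250 bases before to 50 after the start of transcription). Windows were listed for 30 of the 38 genes and not for Myc, Npm1, Bop1, Tcof1, Rrp12, Srm, Fbl and Rrs1. CACGTG, which reads the same on both strands, was in the windows of 6 genes. It lay at -215 and -48 in Rrn3, at -60 in Nop2, at 3 in Pes1, at 18 in Wdr43, at 38 in Utp20 and at 41 in Mybbp1a, counted from the start to the motif's leftmost base in the direction of transcription. By window, 16.2% of the 37 member windows held it, against 7.15% of all 32851 windows. The member windows held a median of 22 CpG dinucleotides, against 7 over all windows. Parts of 4 E-box windows are shown because these genes represent polymerase I (Rrn3), small subunit (Wdr43) and large subunit factors (Nop2, Pes1), and that of Nhp2 because its level varied most by library number among its neighbours in role; capitals mark the E-box. They are chr16:13780449-13780698, chr6:125131733-125131882, chr17:71616115-71616244, chr11:3963875-3964004 and chr11:51619673-51619802, in that order of Rrn3, Nop2, Wdr43, Pes1 and Nhp2, all on the plus strand.
Rrn3: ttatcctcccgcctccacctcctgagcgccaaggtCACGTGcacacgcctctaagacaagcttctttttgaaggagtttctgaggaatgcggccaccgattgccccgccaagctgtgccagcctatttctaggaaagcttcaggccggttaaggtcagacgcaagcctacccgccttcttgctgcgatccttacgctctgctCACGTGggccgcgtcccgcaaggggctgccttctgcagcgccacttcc
Nop2: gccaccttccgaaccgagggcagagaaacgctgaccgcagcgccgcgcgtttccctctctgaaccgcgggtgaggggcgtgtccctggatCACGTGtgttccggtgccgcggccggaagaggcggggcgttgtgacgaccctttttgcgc
Wdr43: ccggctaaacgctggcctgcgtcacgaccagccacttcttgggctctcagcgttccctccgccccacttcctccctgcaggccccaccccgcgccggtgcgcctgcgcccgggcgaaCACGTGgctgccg
Pes1: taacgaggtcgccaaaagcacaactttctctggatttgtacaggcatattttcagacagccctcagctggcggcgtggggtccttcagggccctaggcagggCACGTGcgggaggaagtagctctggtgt
Nhp2: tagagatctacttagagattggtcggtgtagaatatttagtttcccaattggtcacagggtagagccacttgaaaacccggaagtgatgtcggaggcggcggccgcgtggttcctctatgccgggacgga
A match describes the letters of a window and is not a measured binding site.

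Libraries held 35860445 to 56012766 counts. Levels below are in CPM, gene counts per 1000000 scaled between libraries by edgeR's TMM method, as mean ± SD, and libraries are named by their number in the labels. Before the results, 3 libraries that stood apart are given. In R882H with NaCl library 2, 33 of the 38 genes were at their highest of all 16 libraries, where 18.0% of all tested genes were. R882H with NaCl library 1 and WT with azacitidine library 1 held the lowest level of 11 and 9 of the 38, and of 16.2% and 10.4% of all tested genes. The large subunit rRNA row took 1.77% and 3.40% of their counts, against 0.24 to 1.03% in the other 14 libraries. R882H with NaCl library 1 also held 22.3, 24.2 and 31.9 CPM of the T cell genes Cd3d, Cd3e and Cd3g, against at most 3.85 elsewhere. Of the other T and NK cell genes listed, Cd2, Lck and Klrb1c were highest there too, at 30.6, 89.3 and 3.69 CPM. Nkg7 was not, at 392 CPM against 841 in WT with azacitidine library 2. The gate genes Ly6a (Sca1) and Kit were present in all 16, at 30.6 to 275 and 409.7 to 1226 CPM. Results of the group comparisons that rest on these libraries are given with and without them.

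**Figure D1:**
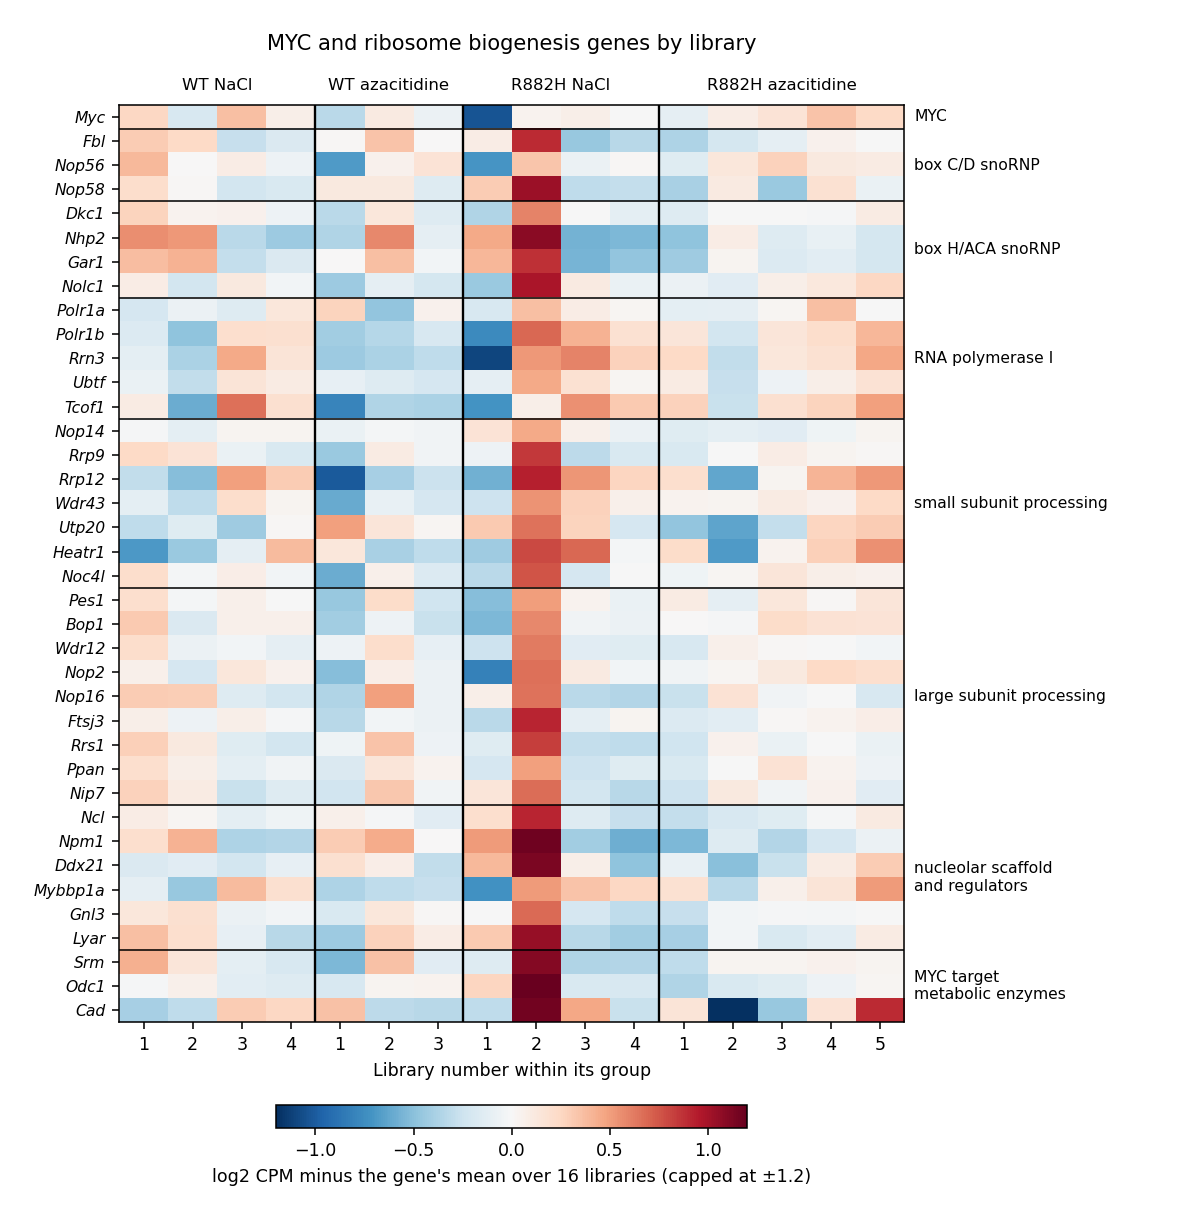
Each cell is the log2 CPM of a gene (rows, by role) in a library (columns, by group and number) minus that gene's mean over 16 libraries, with red above and blue below the mean. The column of R882H with NaCl library 2 holds the highest level of 33 of the 38 genes.

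Per base of counted length, Myc (ENSMUSG00000022346, chromosome 15, 61985391 to 61990374, GRCm38, plus strand) had the highest level of the 38, with a mean FPKM of 256 over 16 libraries. FPKM, as deposited by the authors, divides counts by gene length and library size, and is the only scale used here between genes. Npm1, which encodes the nucleolar chaperone nucleophosmin, followed at 228, the spermidine synthase gene Srm at 182, the snoRNP subunit gene Nhp2 at 171 and Nop56 at 138. The counted length was 2717 bases for Myc, 2665 for Npm1 and 4099 for Nop56. Their longest coding transcripts have 2338, 1633 and 1877 bases, so the order may differ per base of transcript, which was not computed. The lowest were Utp20 at 2.42 and Polr1a at 4.01, the first a small subunit processing factor and the other the largest subunit of RNA polymerase I. The spread over libraries was narrowest for Nop14, with a 1.51-fold range in CPM, and widest for Cad, with a 5.73-fold range. Cad encodes the enzyme of the first steps of pyrimidine synthesis.

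Myc varied with some genes of ribosome biogenesis and not with others. It stood at 846, 626, 912 and 748 CPM in WT with NaCl libraries 1 to 4, at 571, 766 and 679 in WT with azacitidine, at 348, 734, 748 and 710.1 in R882H with NaCl, and at 662, 758, 797, 904 and 839.8 in R882H with azacitidine. The groups overlapped in every comparison, and the lowest library was R882H with NaCl library 1. In library 2 of that group, where most of the other genes peaked, Myc was within the range of libraries 3 and 4 at 1.01 times their mean. Across the 16 libraries, which share groups and library effects, the log2 level of Myc had a median Pearson r of 0.22 with the 37 others. It was highest with Nop2 (0.82), Nop56 (0.80), Rrn3 (0.74), Bop1 (0.73) and Tcof1 (0.70), the last being the gene of the polymerase I cofactor treacle, and lowest with Npm1 (-0.36) and Gar1 (-0.28). R882H with NaCl library 1 held the lowest level of Nop2, Nop56, Rrn3 and Bop1 as well as of Myc. These r values were not computed without that library. The log2 change of Myc with azacitidine was 0.32 (SE 0.20) in R882H, with an adjusted p of 0.80 in edgeR's quasi-likelihood test over all genes. In WT it was -0.22 (SE 0.23, adjusted p 0.93). Without R882H with NaCl library 1 the former was 0.12, and without WT with azacitidine library 1 the latter was -0.12.

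**Figure D2:**
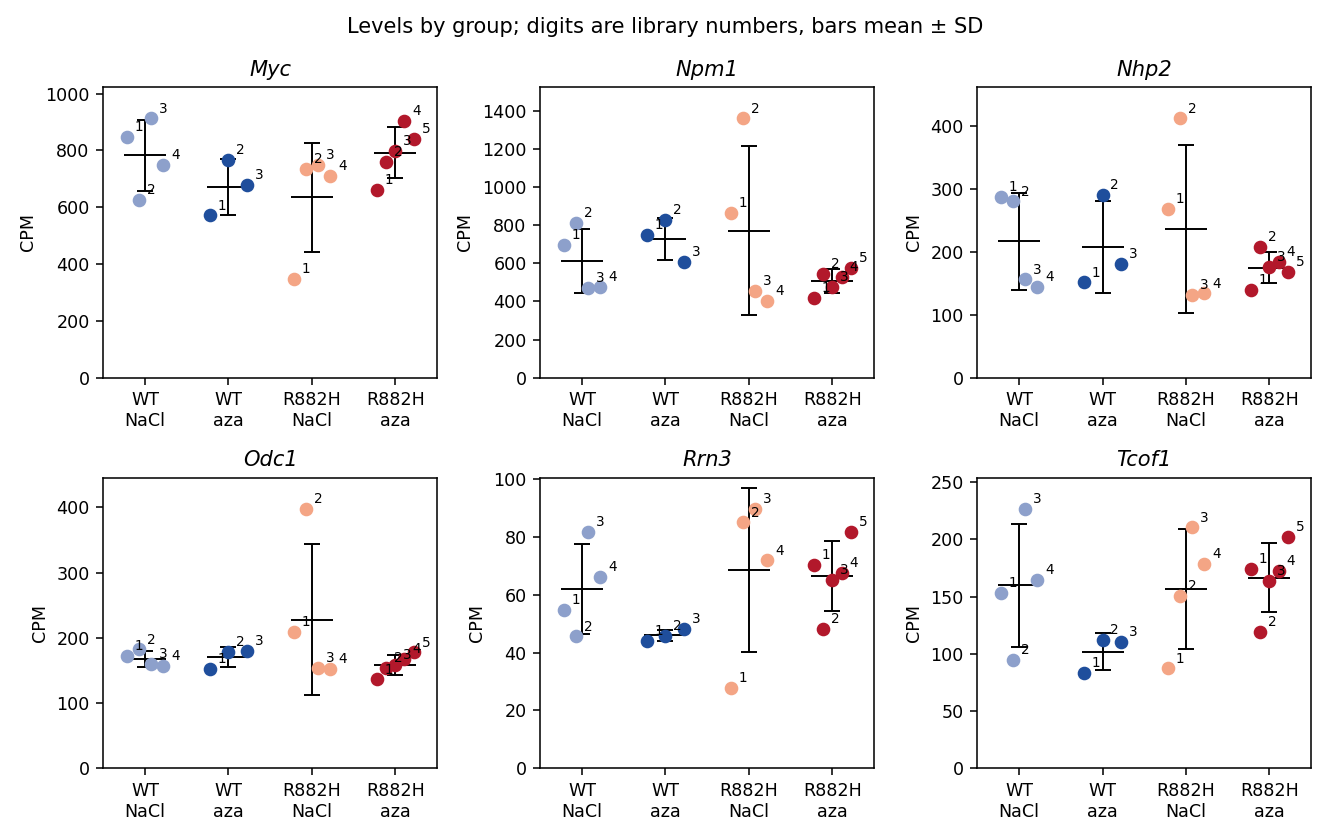
Level in CPM (vertical axis, from 0) of 6 genes in each of 16 libraries by group; digits are library numbers, and bars give the mean ± SD (n = 4, 3, 4 and 5). Npm1, Nhp2 and Odc1 peak in R882H with NaCl library 2 at 1360.1, 411 and 398 CPM, while Tcof1 stands at 150.3 there, within its group's range.

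R882H with NaCl library 2 stood above the other libraries for most of the 38 genes, by amounts that differed widely between genes. The 38 genes took 1.16% of its gene counts, against 0.69 to 0.85% in the other 15 libraries, and their mean log2 CPM was 7.95 against 6.99 to 7.37. Against the mean of libraries 3 and 4 of its group, Npm1 was 3.17-fold, Nhp2 3.11-fold, Srm 2.75-fold and Lyar 2.67-fold higher there. Rrn3, the factor that carries RNA polymerase I to the rRNA promoter, was at 1.06 times their mean, and Tcof1 at 0.775 times. Within each role the values were spread: among snoRNP genes Nop56 was at 1.28 and Gar1 at 2.62 times, and among nucleolar regulators Mybbp1a was at 1.17 and Ddx21 at 2.52 times. Ubtf and Polr1a were at 1.28 and 1.24 times, and the processing genes Rrs1 and Rrp9 at 2.19 and 2.14 times.

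Genes of other programmes moved in the same library. The erythroid genes Car1 (carbonic anhydrase), Klf1 (erythroid transcription factor) and Epor (erythropoietin receptor) stood at 4377, 777 and 232 CPM, against 122, 23.1 and 12.9 in library 3 of the group. The globin genes Hba-a1, Hbb-bs and Hbb-bt of the same list did not peak there, at 82.1, 12.4 and 12.1 CPM. They were highest in library 1 of the group, at 211, 75.4 and 58.2 CPM. The summed level of the 7 erythroid genes listed, most of it from Car1, was 5568 CPM, against 156 to 1647 in the other libraries. That of 8 cycling-cell genes was 2118 against 793 to 1585. The stem and progenitor genes Cd34, Flt3 and Hlf were at their lowest of 16 libraries, at 427, 166 and 73.2 CPM. The sum of 9 such genes was 987 CPM, against 1849.5 to 3669 elsewhere. The part of these genes in the levels of the 38 was not tested. In such bulk libraries fewer cells of a type and less RNA per cell cannot be told apart.

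**Figure D3:**
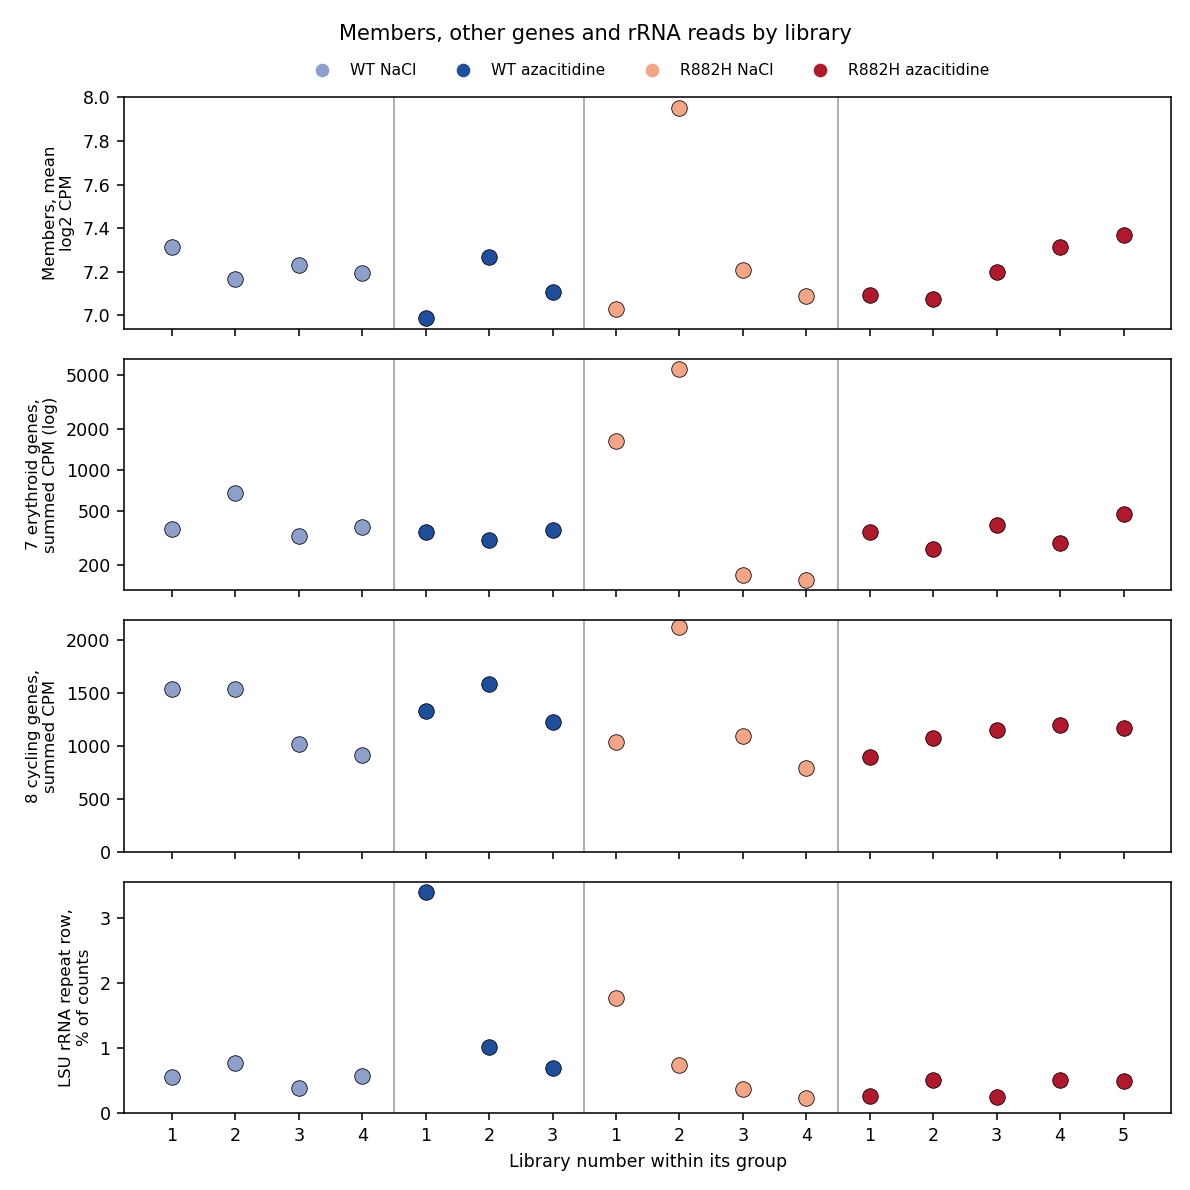
For each of 16 libraries (horizontal axis, numbered within groups), the panels show the mean log2 CPM of the 38 genes, the summed CPM of 7 erythroid genes on a log axis, the summed CPM of 8 cycling-cell genes, and the large subunit rRNA row in percent of counts. R882H with NaCl library 2 is highest in the first 3 panels, at 7.95, 5568 and 2118, and WT with azacitidine library 1 in the last, at 3.40%.

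The first comparison asks whether azacitidine altered these genes in R882H cells. None of the 38 was called by edgeR (adjusted p under 0.05), where 0.00545% of all genes were. DESeq2 and limma-voom, which called 97 and 1 of all genes, called none of the 38. Estimates were below 0 for 32 and above 0 for 6, with a median log2 change of -0.17 against -0.04 over all genes, of which 55.7% lay below 0. At an unadjusted p under 0.05 there were 2 genes, Odc1 and Nop14, both lower. Of all genes 6.69% were past that threshold, 2.24% higher and 4.45% lower. No gene of the 38 had treated and control libraries without overlap, where 1.09% of all genes were higher and 0.485% lower. The direction rested on 1 library. Without R882H with NaCl library 2 the median was 0.0857, with 26 of 38 above 0, and without all 3 libraries that stood apart it was 0.11, also with 26 above 0. The 95% intervals of 35 of the 38 lay within 2-fold in either direction.

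Odc1, the rate-limiting enzyme of polyamine synthesis, stood at 209, 398, 154 and 153 CPM in R882H with NaCl and at 136, 154, 158, 168 and 178 with azacitidine. Treated libraries thus lay below control libraries 1 and 2 and on either side of libraries 3 and 4. The log2 change was -0.52 (SE 0.22, adjusted p 0.69 in edgeR), and without control library 2 it was -0.11. In WT the gene stood at 173, 182, 159.5 and 156 with NaCl and at 153, 178 and 180.1 with azacitidine, a log2 change of 0.02 (SE 0.26). Srm, which acts next in the same pathway, stood at 264, 633, 229 and 231 CPM in R882H with NaCl and at 239, 301, 301, 306 and 301 with azacitidine. Its WT values were 396, 325, 272 and 258 with NaCl and 203, 375 and 268 with azacitidine. For Srm a single control library, number 2, lay above all treated ones. The log2 change of Srm was -0.23 (SE 0.27) in R882H and -0.15 (SE 0.31) in WT. The first was 0.26 without R882H with NaCl library 2, and the other 0.04 without WT with azacitidine library 1.

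Among nucleolar scaffold and regulator genes, all 6 had estimates below 0 with azacitidine in R882H, with a median log2 change of -0.37. Npm1 stood at 865, 1360.1, 455 and 404 CPM with NaCl and at 416, 544, 474, 529 and 578 with azacitidine. Control libraries 1 and 2 lay above and libraries 3 and 4 within or under the treated range. The log2 change of Npm1 was -0.60 (SE 0.29, adjusted p 0.76 in edgeR), the lowest of the 38, and without control library 2 it was -0.18. Ncl, which encodes nucleolin, an abundant RNA-binding protein of the nucleolus, stood at 920.4, 1514, 719 and 664 with NaCl and at 657, 704, 725, 795 and 865 with azacitidine. Its log2 change was -0.35 (SE 0.20), and control libraries 1 and 2 lay above all treated libraries. Ddx21, an RNA helicase of the nucleolus, stood at 108, 181, 86.6 and 59.1 with NaCl and 77.7, 58.4, 68.4, 88.2 and 102 with azacitidine, a log2 change of -0.46 (SE 0.25). Without control library 2 the changes of Ncl and Ddx21 were -0.04 and -0.10. Those of Mybbp1a and Gnl3 were then above 0, at 0.11 and 0.09, and that of Lyar was -0.01. Reads of Npm1, Fbl, Nop56, Wdr12, Pes1, Ddx21 and Odc1 are uncertain in part, since each has a pseudogene transcript that matches over at least 200 bases at 95% identity or more. Genes on the opposite strand overlap Nop56, Dkc1, Nhp2, Polr1a, Nop14, Rrp9, Heatr1, Pes1, Bop1, Wdr12, Mybbp1a and Gnl3, and the strand setting of the counting is not given, so reads of both cannot be told apart.

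All 7 small subunit processing genes had estimates below 0 in this comparison, and 1 of 5 polymerase I genes, 1 of 3 box C/D genes, none of 4 box H/ACA genes and 3 of 9 large subunit genes were above 0. Without control library 2, only Nop14, Utp20, Heatr1, Ubtf, Nop58, Nhp2 and Gar1 of these roles stayed below 0. The small subunit genes Rrp9, Rrp12, Wdr43 and Noc4l then stood at 0.17, 0.02, 0.05 and 0.22. Nop14, a core protein of the small subunit processome, stood at 77.8, 95.1, 72.1 and 66.0 CPM with NaCl and at 62.8, 63.8, 62.9, 67.0 and 70.6 with azacitidine. Its log2 change of -0.25 (SE 0.11, adjusted p 0.72 in edgeR) was -0.14 without control library 2. The WT values of Nop14 ran from 64.0 to 71.0 with NaCl and 65.4 to 68.1 with azacitidine. These groups overlap the R882H groups, and Nop14 was the gene with the least spread of the 38.

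In WT cells azacitidine gave no called gene among the 38 by edgeR, where 0% of all genes were called. DESeq2 and limma-voom, which called 53 and 0 of all genes, called none of the 38. Estimates were below 0 for 27 and above 0 for 11, with a median log2 change of -0.06, against 0.01 over all genes. The 1 gene at an unadjusted p under 0.05 was Tcof1. It stood at 154, 94.9, 226 and 164 CPM with NaCl and at 83.0, 112 and 111 with azacitidine, so NaCl library 2 lay within the treated range. The log2 change was -0.65 (SE 0.29, adjusted p 0.83 in edgeR), and at that unadjusted threshold 6.02% of all genes stood, 3.99% higher and 2.03% lower. Utp20 was the 1 gene whose groups did not overlap, and of all genes 2.94% were higher and 2.79% lower without overlap. It stood at 20.3, 22.7, 18.7 and 25.4 CPM with NaCl and at 35.3, 27.8 and 25.5 with azacitidine. The last of these exceeds the highest control by little, and the log2 change was 0.44 (SE 0.25, adjusted p 0.87), or 0.29 without WT with azacitidine library 1. Intervals of 35 of the 38 lay within 2-fold. The median stayed below 0 on leaving out any 1 library, from -0.21 without WT with azacitidine library 2 to -0.02 without library 1.

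The responses of the genotypes were compared by their difference, R882H minus WT. None of the 38 was called by edgeR, where 0% of all genes were. DESeq2 and limma-voom, which called 12 and 0 of all genes, called none of the 38. The median difference was -0.09 on the log2 scale, against -0.05 over all genes, with 15 above and 23 below 0. Utp20 was the 1 gene at an unadjusted p under 0.05, with a difference of -0.84 (SE 0.33, adjusted p 0.76 in edgeR), where 6.07% of all genes stood, 1.16% higher and 4.92% lower. Its R882H libraries stood at 31.3, 39.5, 30.1 and 21.8 CPM with NaCl and at 18.0, 16.2, 20.6, 30.1 and 31.0 with azacitidine, which overlap. Npm1 had a difference of -0.85 (SE 0.44), Tcof1 of 0.74 (SE 0.39) and Myc of 0.54 (SE 0.31), each with an adjusted p of 0.76. That of Npm1 was -0.43 without R882H with NaCl library 2, and that of Myc was 0.34 without library 1. Without R882H with NaCl library 2 the median was 0.15 and 29 of the 38 lay above 0. Only 21 of the 38 intervals lay within 2-fold.

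Averaged over the genotypes, 35 of the 38 azacitidine estimates were below 0, with a median of -0.15 against -0.02 over all genes. None was called by edgeR, where 0.0218% of all genes were (0.0164% higher and 0.00545% lower). DESeq2 and limma-voom, which called 169 and 3 of all genes, called none of the 38. None had an unadjusted p under 0.05 either, where 6.85% of all genes did, 3% higher and 3.85% lower. Rrp12, a factor of late small subunit maturation and export, had the lowest estimate, at -0.40 (SE 0.23, adjusted p 0.85 in edgeR). It stood at 37.4, 32.2, 64.6 and 57.0 CPM in WT with NaCl and at 22.8, 34.8 and 38.4 with azacitidine. Its R882H values were 30.8, 87.9, 66.3 and 55.0 with NaCl and 53.1, 29.9, 46.9, 61.0 and 66.1 with azacitidine. Both pairs of groups overlap. All intervals for this averaged effect lay within 2-fold. Without R882H with NaCl library 2, 18 of the 38 were above 0.

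**Figure D4:**
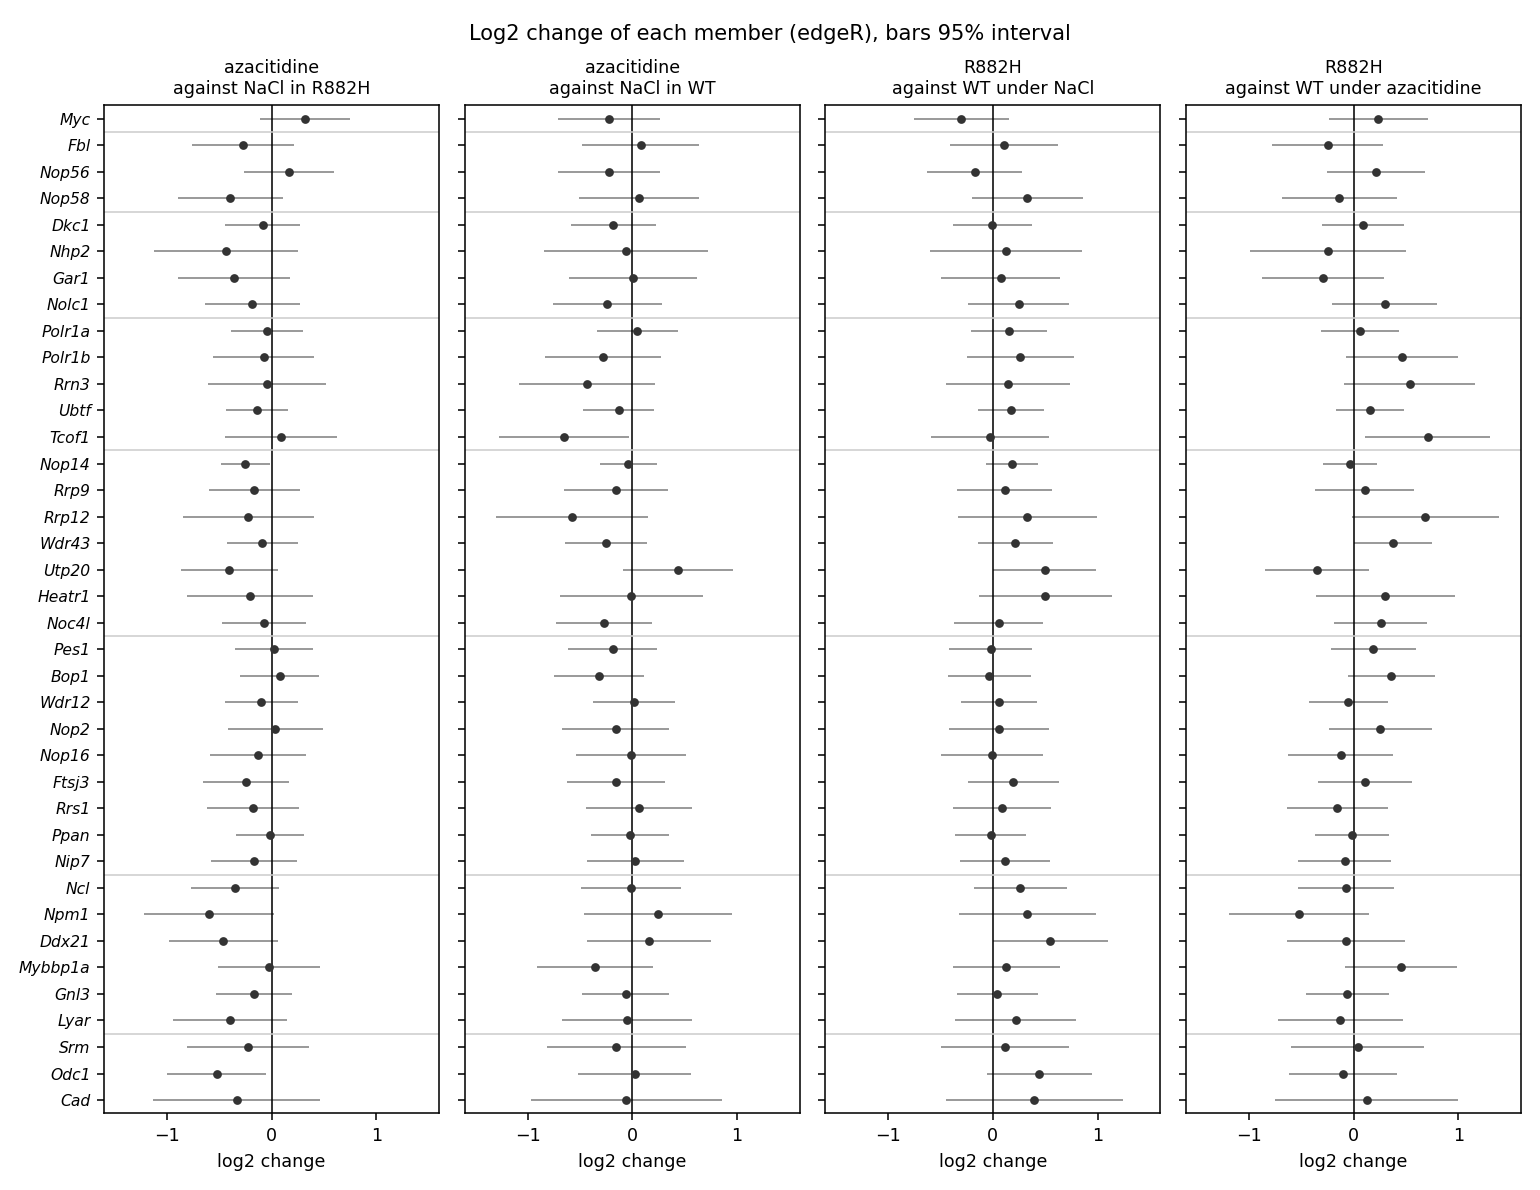
Log2 change of each of the 38 genes (rows, by role) in 4 comparisons of edgeR, with bars for the 95% interval. Nearly all intervals cross 0; those of Odc1 and Nop14 with azacitidine in R882H, Tcof1 with azacitidine in WT, Utp20 between genotypes under NaCl, and Tcof1 and Wdr43 between genotypes under azacitidine do not, and no gene was called after adjustment.

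R882H was compared with WT under NaCl. Again none of the 38 was called by edgeR, where 0.00545% of all genes were. DESeq2 and limma-voom, which called 28 and 1 of all genes, called none of the 38. Estimates were above 0 for 30 and below 0 for 8, with a median log2 difference of 0.13 against 0.03 over all genes. All 7 small subunit, all 6 nucleolar and all 3 metabolic enzyme genes were above 0, and Myc had the lowest estimate, -0.30 (SE 0.21, adjusted p 0.97), which was -0.09 without R882H library 1. Utp20 was the 1 gene at an unadjusted p under 0.05, with a difference of 0.49 (SE 0.23, adjusted p 0.89), where 5.59% of all genes stood, 3.64% higher and 1.96% lower. Ddx21 had the highest estimate, 0.55 (SE 0.26, adjusted p 0.89); its WT libraries with NaCl stood at 73.4, 75.4, 70.9 and 77.0 CPM, so that R882H libraries 1 to 3 lay above them and library 4, at 59.1, below. Without R882H library 2 it was 0.19. No gene of the 38 had groups without overlap, where 0.878% of all genes were higher and 1.09% lower. Without R882H library 2 the median was -0.14, with 12 above 0, and without all 3 libraries it was -0.12, with 14 above 0.

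Under azacitidine, 21 of the 38 were above 0 in R882H against WT and 17 below, with a median of 0.07, against -0.02 over all genes. None was called by edgeR, where 0.00545% of all genes were. DESeq2 and limma-voom, which called 21 and 0 of all genes, called none of the 38. Tcof1 and Wdr43 had an unadjusted p under 0.05, both higher in R882H; of all genes 9.34% stood past that threshold, 2.65% higher and 6.69% lower. Groups did not overlap for Rrn3, Tcof1, Wdr43 and Bop1, all higher, and for Npm1, lower; of all genes, 5.05% were higher and 5.66% lower without overlap. Without WT with azacitidine library 1 the median was -0.0076.

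The polymerase I genes lay on one side in this comparison. All 5 were above 0, with a median log2 difference of 0.46. Tcof1 stood at 174, 119, 164, 173 and 202 CPM in R882H with azacitidine and at 83.0, 112 and 111 in WT with azacitidine, so R882H library 2 was nearest to WT. Its log2 difference was 0.71 (SE 0.28, adjusted p 0.53 in edgeR). Under NaCl Tcof1 stood at 87.2, 150.3, 210.3 and 179 in R882H, a log2 difference from WT of -0.03 (SE 0.27), and of 0.18 without R882H with NaCl library 1. Rrn3 stood at 70.2, 48.3, 65.0, 67.6 and 81.8 CPM in R882H and at 44.0, 45.7 and 48.0 in WT, a difference of 0.54 (SE 0.30). The lowest R882H library exceeded the highest WT library by under 1 CPM. Polr1b, the second-largest polymerase subunit, differed by 0.46 (SE 0.25), Ubtf, which binds along active rRNA genes, by 0.16 (SE 0.15), and Polr1a by 0.06 (SE 0.18). Without WT library 1 that of Polr1a was 0.23. Ubtf stood at 203, 156, 181, 199 and 214 CPM in R882H and at 177, 169.9 and 165 in WT, which overlap. Its NaCl values were 179, 154, 211 and 203 in WT and 176, 259.9, 215 and 192 in R882H. The 11 other genes of the polymerase I machinery listed did not share this direction: 5 were above and 6 below 0, with a median of -0.10.

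Wdr43, a factor of the small subunit processome, stood at 253, 251, 262, 254 and 291 CPM in R882H with azacitidine and at 161, 231 and 214 in WT with azacitidine, a difference of 0.38 (SE 0.18, adjusted p 0.53 in edgeR). WT with azacitidine library 1 was the lowest of 16 for it, and without that library the difference was 0.24. With NaCl it stood at 226, 199.6, 285 and 251 in WT and at 206, 357, 297 and 256 in R882H, which overlap. Noc4l, of the same processome, stood at 88.7, 93.6, 102, 96.9 and 95.6 in R882H with azacitidine and at 60.9, 96.2 and 82.2 in WT. Its NaCl values were 107, 90.8, 97.5 and 90.1 in WT and 73.4, 155, 79.9 and 91.7 in R882H. Noc4l libraries of low level were again those with the most rRNA, WT with azacitidine library 1 and R882H with NaCl library 1; the part of rRNA reads in this was not tested. Npm1 stood at 749.8, 826 and 608 CPM in WT with azacitidine, above all 5 R882H libraries, and its difference was -0.52 (SE 0.32, adjusted p 0.57).

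The snoRNP genes showed the spread by library that the group means hide. Nhp2, a core protein of the box H/ACA particle that guides pseudouridine formation, stood at 286, 279.8, 156 and 144 CPM in WT with NaCl libraries 1 to 4 and at 267, 411, 131 and 134 in R882H with NaCl. With azacitidine it stood at 151, 289 and 180.4 in WT and at 139, 208, 175, 183 and 168 in R882H. In both NaCl groups, libraries 1 and 2 were high and 3 and 4 low. Dkc1, the pseudouridine synthase of the particle, stood at 372, 319, 319 and 296 in WT with NaCl, then at 246, 340.4 and 278 with azacitidine there, 240.1, 468, 307 and 285 in R882H with NaCl, and 278, 309, 307, 306 and 331 in R882H with azacitidine. All groups of Dkc1 overlapped. Fbl, the methyltransferase of the box C/D particle, stood at 343, 328, 229.9 and 247 in WT with NaCl and 295, 516, 203 and 221 in R882H with NaCl, and with azacitidine at 281, 351 and 278 in WT and 215, 239.7, 258, 289 and 277 in R882H. Nop56, its partner in the particle, stood at 758, 582, 616 and 557 in WT with NaCl, then at 362, 603 and 649 with azacitidine there, 356, 730.5, 554 and 586 in R882H with NaCl, and 526, 639, 702, 629 and 622 in R882H with azacitidine. The 2 libraries of low Nop56 were those with the most rRNA.

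The library number went with the level of many of the 38 within the NaCl groups. What a number marks is not given, and the split into 1 and 2 against 3 and 4 was known from earlier results, so it is described with no test. In WT, 22 of the 38 were higher in libraries 1 and 2, with a median log2 difference of 0.06, against -0.01 over all genes. In R882H 28 were, with a median of 0.33, against -0.07 over all genes. Both genotypes agreed in direction for 30 genes, 21 higher and 9 lower; over all genes 35.4% were higher and 39.4% lower in both. Libraries 1 and 2 lay wholly above 3 and 4 in both genotypes for 14 genes and wholly below for 1, Tcof1. Of the 18341 genes tested, 3387 lay wholly above and 3359 wholly below in both. The highest differences were those of Nhp2 (0.92 in WT and 1.33 in R882H), Npm1 (0.67 and 1.34) and the box H/ACA gene Gar1 (0.63 and 1.15). Averaged over both genotypes, the lowest were those of Tcof1 (-0.68 and -0.76) and Rrn3 (-0.56 and -0.73), while in WT alone Rrp12 was lower still, at -0.80. Myc was lower by number too, at -0.18 and -0.53.

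Short genes lay at the high end. Across the 38 genes, the difference by number had a Pearson r with log2 counted length of -0.50 in WT and -0.30 in R882H, against -0.24 in each genotype over all genes; genes share libraries and are not replicates. Of the 19 genes shorter than the median of 4110 bases, 14 were higher in libraries 1 and 2 of both genotypes, and of the 19 others 7 were. Ribosomal protein genes, which are short as well, took 3.60 to 5.26% of gene counts in the 4 NaCl libraries numbered 1 and 2 and 2.14 to 2.76% in those numbered 3 and 4. What length has to do with the difference was not tested.

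**Figure D5:**
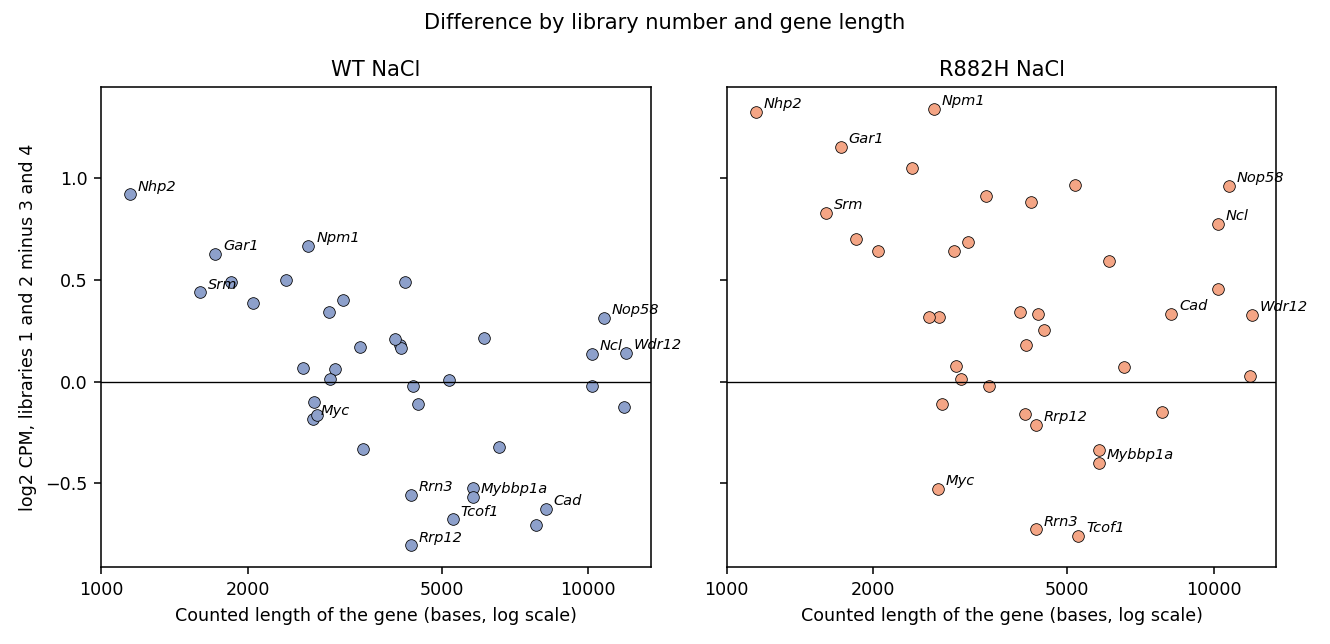
Difference in log2 CPM between libraries 1 and 2 and libraries 3 and 4 (vertical axis) against the counted length of each of the 38 genes in bases (log scale), for WT with NaCl and R882H with NaCl. Nhp2, the shortest, lies at 0.92 and 1.33, and Tcof1 at -0.68 and -0.76.

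Within library numbers, the comparisons went different ways. Between libraries numbered 1 and 2 alone (n = 2 in each group), the median azacitidine difference of the 38 in R882H was -0.41, with 7 above 0. Among those numbered 3 and over it was 0.16, with 29 above 0. R882H against WT under NaCl had a median of 0.22 with 31 above 0 in the former and -0.07 with 8 above 0 in the latter. WT with azacitidine has 1 library numbered 3 or over. The first of these values includes R882H with NaCl library 2 and the second does not.

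The large subunit factors differed among themselves in this: Nop16, Rrs1 and Nip7 of the 9 lay wholly above in libraries 1 and 2 of both genotypes. Nop2, an rRNA methyltransferase, stood at 179, 149, 188 and 178 CPM in WT with NaCl, then at 121, 182 and 164 with azacitidine there, 98.2, 272, 185 and 168 in R882H with NaCl and 167, 175, 186, 203 and 198 in R882H with azacitidine. It did not split by library number, and its R882H control libraries 1 and 2 are the lowest and the highest of all 16. Nop16, a nucleolar protein of large subunit assembly, stood at 130.0, 129, 94.1 and 90.3 in WT with NaCl and at 110.2, 165, 83.7 and 82.4 in R882H with NaCl, high in libraries 1 and 2 of both. With azacitidine it stood at 81.8, 148 and 99.7 in WT and at 87.1, 118, 102, 104 and 92.1 in R882H. Pes1, Bop1 and Wdr12, which form 1 complex, had azacitidine log2 changes of 0.03, 0.08 and -0.10 in R882H and of -0.19, -0.32 and 0.01 in WT, none past the test. The R882H values were 0.22, 0.31 and 0.15 without R882H with NaCl library 2, and -0.12, -0.07 and -0.19 without library 1, and without WT with azacitidine library 1 the WT values were -0.05, -0.24 and 0.06.

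The median correlation among the 38 genes depended on 1 library. The median Pearson r over the 703 pairs of genes across 16 libraries was 0.53, with 87 pairs below 0. Without R882H with NaCl library 2 it was 0.17, with 286 pairs below 0. Single pairs still ran from -0.85 to 0.97 without that library, against -0.58 to 0.97 with it. These values describe libraries that share groups. The SD of log2 CPM over the 16 libraries had a median of 0.32 for the 38 and 0.44 for all genes tested.

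Other genes of the pathway were listed by role: 11 of RNA polymerase I, 11 snoRNP, 47 small subunit and 39 large subunit genes tested, with 17 of the MYC network, 30 other MYC targets, 11 polyamine genes and 9 snoRNA host genes. None was called in any of the 6 comparisons by edgeR. In R882H, azacitidine estimates were below 0 for 34 of 47 small subunit and 32 of 39 large subunit genes, with medians of -0.05 and -0.09, near the -0.04 of all genes. Tfrc, a MYC target that encodes the transferrin receptor, had the lowest change there among the genes named from these lists, -1.59 (SE 0.55, adjusted p 0.56 in edgeR). It stood at 103, 305, 30.4 and 23.3 CPM in R882H with NaCl and at 27.0 to 45.8 with azacitidine, so that control libraries 1 and 2, which held the most erythroid RNA, lay above all others. Without control library 2 the change of Tfrc was -0.45. Max, the partner of MYC, stood at 65.1 ± 24.6 CPM in WT with NaCl, 73.9 ± 32.8 in WT with azacitidine, 109 ± 43.3 in R882H with NaCl and 74.4 ± 32.6 in R882H with azacitidine. Its log2 change with azacitidine was -0.55 (SE 0.37) in R882H and 0.18 (SE 0.43) in WT. These were -0.31 without R882H with NaCl library 2 and -0.20 without WT with azacitidine library 1.

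Mycn, the relative of Myc that stem cells also express, was split by library number in the NaCl groups. It stood at 88.5, 90.3, 229.7 and 248 CPM in WT with NaCl libraries 1 to 4 and at 139, 62.8, 223 and 253 in R882H with NaCl. With azacitidine it stood at 75.9, 111 and 167 in WT and at 245, 204, 193, 197 and 211 in R882H. The log2 difference between genotypes under azacitidine was 0.83 (SE 0.42, adjusted p 0.54 in edgeR). In both NaCl groups libraries 1 and 2 of Mycn lay below 3 and 4, while Npm1 and Nhp2 lay above.

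Genes that host small nucleolar RNAs in their introns had estimates of 1 sign between genotypes under azacitidine. All 9 were lower in R882H than in WT, with a median log2 difference of -0.61, 6 at an unadjusted p under 0.05 (6.69% of all genes were lower at that threshold) and 7 without overlap (5.66% of all genes). None was called by edgeR, and Taf1d, 1 of the 9, is also on the polymerase I list. Without WT library 1 the median was -0.57, all 9 were still lower and 7 did not overlap, but 0 had an unadjusted p under 0.05. With fewer WT libraries groups part more readily, and the share of all genes without overlap was not computed for that setting. Gas5 stood at 315, 374, 347, 299 and 309.9 CPM in R882H and at 568, 504 and 439 in WT, a difference of -0.61 (SE 0.24, adjusted p 0.53). Zfas1 stood at 26.7, 31.0, 32.8, 28.1 and 29.7 in R882H and at 86.7, 47.7 and 41.7 in WT, a difference of -0.98 (SE 0.36, adjusted p 0.53), which was -0.59 without WT library 1. All 3 WT libraries lay above all 5 R882H libraries for both genes, and the highest was WT library 1, which held the most rRNA. Under NaCl the median of the 9 genes was 0.04. Within the NaCl groups these genes were split by library number. Their mean log2 CPM was 5.54 and 5.96 in WT libraries 1 and 2, and 4.99 and 5.27 in 3 and 4. In R882H with NaCl it was 6.07 and 5.96, then 4.90 and 4.89. With azacitidine it was 6.16, 5.74 and 5.72 in WT and 5.04 to 5.40 in R882H. The part of library number in the genotype difference was not tested. Huwe1, a ubiquitin ligase that acts on MYC, had the lowest p of the MYC network, with a difference under azacitidine of -0.83 (SE 0.24, adjusted p 0.53). Its WT values of 170.4, 82.4 and 75.3 CPM lay above the 56.2 to 68.0 of R882H, and without WT library 1 the difference was -0.36 (SE 0.21, adjusted p 0.85).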

How the data were processed

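The 38 genes and the lists were chosen with earlier results of these data known. The deposited files hold raw counts per gene on GRCm38 (mm10). The submitters' processing notes name featureCounts 1.6.2, HISAT2 2.0.5 and edgeR 3.26.6, without their order; strand and multi-mapping settings are not given in the sources used here. The deposited FPKM values are the same counts divided by the length column, another unit (bases), and by 1 library size. Libraries were made from RNA with a RIN of 8 or more by a low-input cDNA kit, per the labels.

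Repeat rows, 1201 of them and 2.97 to 10.1% of counts, stayed out of library sizes and tests. Gene counts were filtered with filterByExpr, scaled by TMM and fitted in edgeR 4.0.16 (R 4.3.3) by the quasi-likelihood model with 1 coefficient per group over 16 libraries; p-values were adjusted by Benjamini-Hochberg over 18341 genes. Intervals are 95%. Mean log2 CPM uses a prior count of 2. DESeq2 1.42.0 and limma-voom (limma 3.58.1), other scalings, no filter, a block, subsets of groups and left-out libraries were alternatives, and 1 more, chosen after seeing the data, left WT with azacitidine library 1 out of the snoRNA host comparison. Of 25 pairs of libraries within groups, the lowest chi-square per gene was 38.5, so none was a copy. The scripts were tested on simulated data. Reads carry no molecular identifiers, and total counts were 35860445 to 56012766.

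Named genes were Myc, any called gene, the 3 lowest-p genes per comparison and, by role, the 2 highest by FPKM and the largest difference by library number; Polr1a, Polr1b, Rrn3, Bop1, Pes1, Wdr12, Gar1, Lyar and Cad were named after their values were seen. Same-numbered NaCl libraries of WT and R882H deviated together in all 4 pairs (r 0.101, 0.342, 0.340 and 0.320). Both NaCl groups also share the split by library number, and differently numbered libraries were not compared. These values therefore do not show that single numbers pair libraries, and the labels do not say so. GENCODE M21 gave symbols for 30100 of 30141 identifiers, and RefSeq (GRCm38.p6) the promoter windows.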

Additional observations from a re-analysis of the deposited data

Results flagged for a closer look

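For each of the 38 genes in the 3 groups of 4 or 5 libraries, the library farthest from the others was compared with the range of its group. Of 114 such checks, 10 (8.77%) found a library apart, where chance gives about 1 in 20. Over all tested genes the share was 8.88% in R882H with NaCl, 7.18% in R882H with azacitidine and 4.41% in WT with NaCl.

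In R882H with NaCl, library 1 lay apart on the low side for Myc, at 348 CPM. Library 2 lay apart on the high side for Rrp9 (169 CPM), Wdr12 (271 CPM), Rrs1 (176 CPM), Ppan (265 CPM) and Srm (633 CPM). In R882H with azacitidine, library 4 was high for Polr1a at 63.3 CPM, library 5 was high for Wdr43 at 291 CPM, and library 1 was low for Gnl3 at 190.4 CPM and for Srm at 239 CPM.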

How the results depend on the processing

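No gene of the 38 was called in any comparison in any of 160 alternative results (0 called in each). Without R882H with NaCl library 2, the median log2 change was 0.0857 for azacitidine in R882H, 0.149 for the difference of the responses and -0.136 for R882H against WT under NaCl; without the 3 libraries that stood apart the first and the last were 0.115 and -0.12. Leaving out each library in turn, these medians ran from -0.27 to 0.0857, from -0.158 to 0.149 and from -0.136 to 0.237. Without the 3 libraries, azacitidine changes in R882H were 0.0552 for Odc1 and 0.243 for Npm1, the difference of responses was 0.0325 for Npm1, R882H against WT under NaCl was -0.0137 for Ddx21 and -0.121 for Odc1, and the averaged azacitidine change was 0.0697 for Odc1. These fits have fewer libraries, and the cause was not tested. For the snoRNA host genes under azacitidine, leaving out WT library 1, an alternative chosen after seeing the data, gave a median of -0.57. The other 161 alternative medians moved by less than 1 SD of the mean log2 CPM of the 38, 0.237, and 608 alternative values of single genes stayed on the same side. That SD is larger than the main median of any group comparison, so a median that moved by less can still change sign. The median for R882H against WT under azacitidine did so, from 0.07 to -0.0076 without WT with azacitidine library 1.

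With the replicate number as a block, 0 genes of the 38 were called in each comparison, and the median for R882H against WT under NaCl was 0.0999. In the other comparisons same-numbered libraries had r from -0.124 to 0.345, and the block changed no call there. What limits the precision, depth or the number of libraries, was not tested.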
